A study of Mus musculus with 6 samples.

Results

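This report describes 10 genes of oxygen binding and heme turnover in mouse hind leg muscle, taken by gene symbol from a table of 16759 genes. They are the adult alpha globins Hba-a1 and Hba-a2, the adult beta globins Hbb-bs and Hbb-bt, the red-cell enzymes Alas2 and Bpgm, myoglobin (Mb), and the heme enzymes Alas1, Fech and Hmox1. All 10 symbols were found, each in 1 row, and all 10 passed the filter on low values, which left 10883 genes to be tested. Muscle of exercised (EX) mice was compared with that of control (Con) mice by RNA sequencing, with 3 libraries in each group. The mice of both groups were male C57BL/6J and 8 weeks old at the start. The EX mice ran on a treadmill for 60 min on 5 days a week over 6 weeks, a distance of 22 km per mouse, with muscle taken 24 h after the final run, whereas the Con mice did no treadmill training. The mice were perfused with saline through the heart before dissection, and the fat between the muscles was removed. The sources used here name no single muscle.

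Hemoglobin carries oxygen in red cells as a tetramer of alpha and beta chains, each holding a heme, and myoglobin is the single-chain relative that stores oxygen in muscle fibers. Heme is made from glycine and succinyl-CoA in cells that have mitochondria. The first step is run by ALAS1 in most cells and by its X-linked relative ALAS2 in red-cell precursors, and ferrochelatase (Fech) inserts the iron at the end. Heme oxygenase 1 (Hmox1) opens the ring again and releases iron, and BPGM makes 2,3-bisphosphoglycerate, which lowers the oxygen affinity of hemoglobin in red cells.

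The sequences show why the 4 globin rows cannot be read as fully separate genes. The reference coding sequences of Hba-a1 and Hba-a2 (429 bases each, GENCODE M21) differed at 1 position, C381T, and those of Hbb-bs and Hbb-bt (444 bases each) at 1 position, C417T. Positions are counted from 1 at the start codon, and the first gene's base is given first. The stretches around these positions follow, with the differing base in capitals.
Hba-a1: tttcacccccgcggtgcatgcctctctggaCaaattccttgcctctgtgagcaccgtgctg
Hba-a2: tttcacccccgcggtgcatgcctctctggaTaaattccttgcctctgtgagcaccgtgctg
Hbb-bs: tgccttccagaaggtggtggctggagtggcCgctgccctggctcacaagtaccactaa
Hbb-bt: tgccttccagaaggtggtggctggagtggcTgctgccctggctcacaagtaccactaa
Of all stretches of 150 bases (the read length) in the reference transcripts, 48.4% of those of Hba-a1 and 65.7% of those of Hba-a2 also occur in the partner gene, as do 58.7% of those of Hbb-bs and 50.7% of those of Hbb-bt. The deposited counts of the 4 globins were not whole numbers in any library, but the 2 alpha counts added up to a whole number in every library and so did the 2 beta counts, in 12 of 12 sums (within 0.01). In Con replicate 1, for instance, 1029.03 counts of Hba-a1 and 602.97 of Hba-a2 made 1632. The sum of a pair therefore does not depend on how shared reads were divided, whereas each single globin value does. The counts of the other 6 genes were whole in all 6 libraries.

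The sequence before the transcription start is shown for the genes whose values are described in most detail below, as 150 bases written along the gene (RefSeq, GRCm38.p6). Entries were matched for 8 of the 10 genes. Capitals mark 4 short motifs of promoters, namely GATAA (the GATA motif), CACCC (the CACCC box), CCAAT (the CCAAT box) and TATAA (the TATA box). They were searched on both strands, so a match on the other strand appears as the reverse complement. Hba-a1 lies at chr11:32283522-32283671 (plus strand), Hbb-bs at chr7:103827929-103828078 (minus), Hbb-bt at chr7:103813924-103814073 (minus), Alas2 at chrX:150547267-150547416 (plus), Bpgm at chr6:34476206-34476355 (plus) and Mb, for the second of its 3 listed starts, at chr15:77022788-77022937 (minus).
Hba-a1: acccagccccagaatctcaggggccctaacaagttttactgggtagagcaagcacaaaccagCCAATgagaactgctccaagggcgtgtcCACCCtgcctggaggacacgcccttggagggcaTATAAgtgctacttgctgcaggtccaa
Hbb-bs: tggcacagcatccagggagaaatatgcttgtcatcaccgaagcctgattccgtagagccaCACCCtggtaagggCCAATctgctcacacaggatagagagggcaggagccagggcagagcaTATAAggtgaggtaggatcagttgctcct
Hbb-bt: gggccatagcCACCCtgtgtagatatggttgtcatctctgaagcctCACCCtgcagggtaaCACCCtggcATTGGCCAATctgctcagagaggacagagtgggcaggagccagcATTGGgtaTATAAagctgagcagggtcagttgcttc
Alas2: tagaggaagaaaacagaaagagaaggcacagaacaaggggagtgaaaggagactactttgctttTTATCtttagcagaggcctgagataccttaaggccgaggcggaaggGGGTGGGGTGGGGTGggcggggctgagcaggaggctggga
Bpgm: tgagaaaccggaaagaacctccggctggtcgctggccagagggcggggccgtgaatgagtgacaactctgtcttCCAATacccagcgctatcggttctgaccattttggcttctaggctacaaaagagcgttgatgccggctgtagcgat
Mb: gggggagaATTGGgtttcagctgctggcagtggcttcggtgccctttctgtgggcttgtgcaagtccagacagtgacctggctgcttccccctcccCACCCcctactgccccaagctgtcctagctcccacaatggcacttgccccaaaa
All 4 globin windows held a CACCC box, a CCAAT box and a TATA box. Over 32851 windows of this length, 37.4% held CACCC, 24.5% CCAAT, 14.2% TATAA and 13.3% GATAA on either strand. Upstream of Hba-a1 and Hba-a2 the sequence was the same over 247 of 247 bases compared, so the alpha pair is printed once, while Hbb-bs and Hbb-bt, aligned without gaps at 1 offset, matched at 71.1% of 149 bases nearest the start and at 51% of 249 bases. GATAA, the core of the site read by the erythroid factor GATA1, occurred only before Alas2 among the 8 genes, which also had 3 CACCC letters in a row on the other strand. Alas1 held none of the 4 motifs in its first listed window, but just after its start lay a palindrome (in capitals), the consensus site of NRF1, a factor of mitochondrial biogenesis, at chr9:106247906-106247935 on the minus strand.
Alas1: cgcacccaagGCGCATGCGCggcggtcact
That palindrome occurred in 0.971% of 32851 windows of 300 bases around starts. Such matches describe letters and were not tested as bound sites.

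In muscle of both groups the 10 genes spanned over 3 orders of magnitude. Levels between genes are compared in FPKM (fragments scaled by transcript length and library depth), the authors' values. Mb stood far above the others, with 2960, 3147 and 3192 FPKM in the Con and 2681, 2720 and 2662 FPKM in the EX libraries, and ranked 20 of 16759 genes by mean FPKM. Hbb-bs followed at 332 to 401 FPKM over the 6 libraries and Hba-a1 at 298 to 358 FPKM, ranges that overlap, and then Hba-a2 at 179 to 220 FPKM. The next genes were Bpgm at 76.0 to 88.3 FPKM and Alas1 at 60.2 to 67.0 FPKM. The ranges of Alas1 and Hbb-bt (55.3 to 64.3 FPKM) overlapped, as did those of Hbb-bt and Fech (53.2 to 59.6 FPKM). Hmox1 lay at 8.67 to 10.9 FPKM, and Alas2 was the lowest member at 1.38 to 2.13 FPKM, far under Alas1 in every library. The FPKM of Alas1 was 36.6 ± 7.08 times that of Alas2 in Con and 32.2 ± 1.49 times in EX (SD, n = 3 each; exact permutation test, two-sided p = 0.6, where 0.1 is the smallest p that 3 against 3 libraries allow). Mb took 0.202% to 0.238% of all counts of a library and the 4 globins together 0.0241% to 0.0278%.

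**Figure D1:**
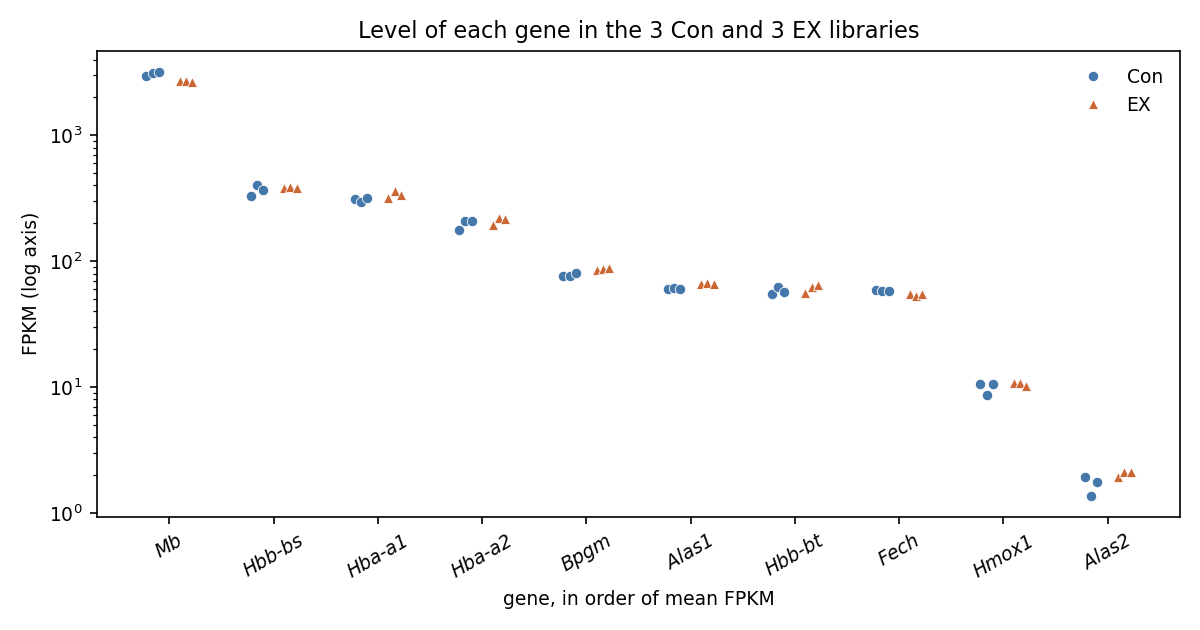
FPKM of the 10 genes on a log axis, with circles for the 3 Con and triangles for the 3 EX libraries, in order of mean FPKM. Mb lies between 2662 and 3192 FPKM, and Alas2 at the other end between 1.38 and 2.13 FPKM.

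After training, 4 of the 10 genes passed the threshold, an adjusted p under 0.05 (edgeR's quasi-likelihood F-test, adjusted by Benjamini-Hochberg over all genes tested). Hba-a1, Bpgm and Alas1 were higher in EX and Mb was lower. Over all 10883 genes tested, 17.9% passed, 9.11% as higher and 8.8% as lower in EX. The CPM values (defined below) of the groups were apart, with no overlap, in 5 of the 10 genes, against 33.7% of all genes tested. The changes were small: among the called genes of the table the median absolute log2 fold change was 0.25, and the called members lay between 0.14 and 0.22. Values within 1 gene are given below as CPM, counts scaled to a common library size over the tested genes, and fold changes on the log2 scale as EX minus Con.

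**Figure D2:**
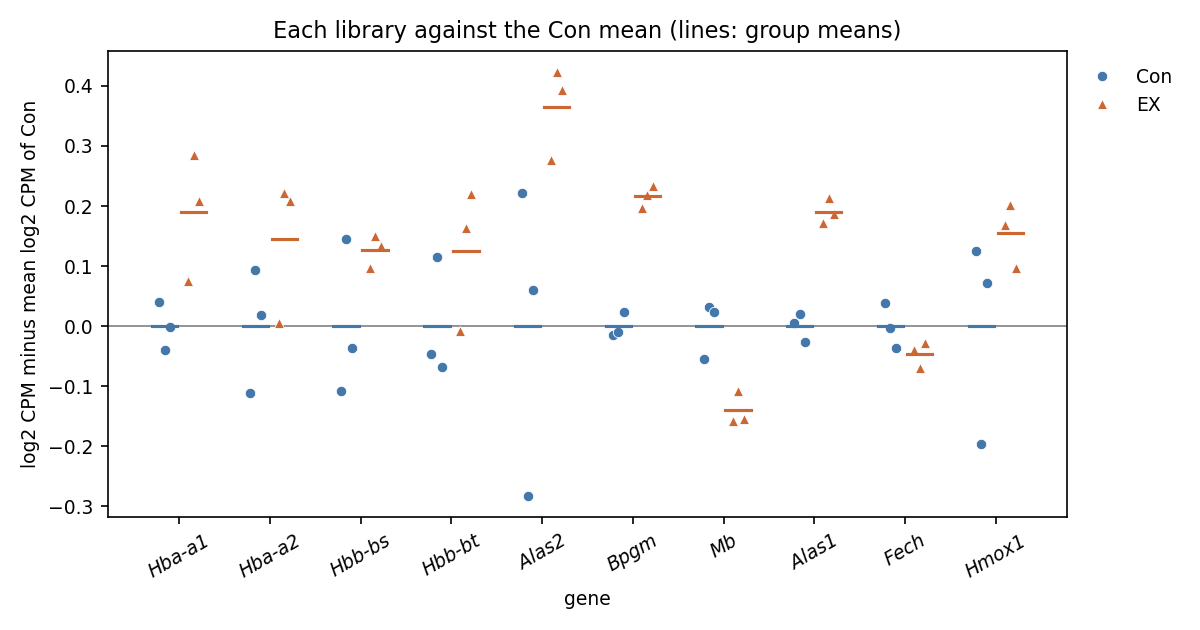
log2 CPM of each library minus the mean log2 CPM of the 3 Con libraries, with circles for Con, triangles for EX and short lines for group means. The EX points lie above all Con points for Hba-a1, Alas2, Bpgm and Alas1, below them for Mb, and overlap them for the other 5 genes.

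Of the alpha globins, Hba-a1 rose and Hba-a2 did not pass the test. Hba-a1 was at 73.8, 69.9 and 71.7 CPM in the Con and 75.6, 87.4 and 82.9 CPM in the EX libraries. In CPM the EX values all lay above the Con values, EX replicate 1 by the least. In FPKM, EX replicate 1 (317) lay under Con replicate 3 (320). The log2 fold change was 0.19 (SE 0.051, edgeR adjusted p = 0.00777). Without Con replicate 2 the adjusted p was 0.0532 (log2 fold change 0.17) and without EX replicate 2 it was 0.0837 (0.14). Nor did limma call the gene on log2(FPKM + 0.1) (0.12, adjusted p = 0.137) or on log2(TPM + 0.1) (0.09, adjusted p = 0.221). In these limma fits the median log2 fold change over all genes tested was -0.06 and -0.09, against -0.00093 with edgeR. The limma values of the genes below come from the same fits. Hba-a2 was at 43.3, 49.8 and 47.3 CPM in Con and 46.9, 54.4 and 54.0 CPM in EX, so EX replicate 1 lay within the Con range. Its log2 fold change of 0.14 (95% confidence interval 0.020 to 0.27) missed the threshold (edgeR adjusted p = 0.103), and it moved both ways with single libraries: without EX replicate 1 it was 0.21 and passed (adjusted p = 0.0198), and without Con replicate 1 it was 0.09 (adjusted p = 0.333). With limma it was 0.08 on FPKM and 0.04 on TPM. With both alpha counts added before the fit, which removes the division of shared reads, the pair rose by 0.17 on the log2 scale (SE 0.047, edgeR adjusted p = 0.00968). The alpha sum was 117, 120 and 119 CPM in Con and 122, 142 and 137 CPM in EX, with no overlap. Its exact permutation test gave a two-sided p of 0.1, the smallest that 3 against 3 libraries allow. In FPKM the alpha sum was 489, 508 and 528 in Con and 510, 578 and 551 in EX, which overlap. The log2 difference in FPKM was 0.10 (exact permutation test, two-sided p = 0.2). In alternatives chosen after seeing the data, the summed pair was called in 11 of 16 and missed with the 3 limma fits (0.07 to 0.10, adjusted p = 0.206 to 0.334) and without EX replicate 2 (0.13, adjusted p = 0.0973) or EX replicate 3 (0.16, adjusted p = 0.0687).

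Neither beta globin passed the test. Hbb-bs, the more abundant of the pair, was at 105, 125 and 110 CPM in Con and 121, 126 and 124 CPM in EX. Con replicate 2 stood as high as the EX libraries, while the other Con libraries were below all of them. The log2 fold change was 0.12 (95% confidence interval 0.019 to 0.22, edgeR adjusted p = 0.0944). Without Con replicate 2 it was 0.19 and passed (adjusted p = 0.0079), and without Con replicate 1 it was 0.07 (adjusted p = 0.347). With limma it was 0.06 on FPKM and 0.03 on TPM. Hbb-bt was at 17.0, 19.0 and 16.7 CPM in Con and 17.5, 19.7 and 20.4 CPM in EX, with a log2 fold change of 0.12 (95% confidence interval -0.038 to 0.29, edgeR adjusted p = 0.305) that was 0.08 without EX replicate 3 and 0.19 without EX replicate 1, and 0.06 and 0.02 with limma on FPKM and TPM. Summed before the fit, the beta pair differed by 0.12 on the log2 scale (SE 0.049, adjusted p = 0.0849), and it passed in 1 of the same 16 alternatives, without Con replicate 2 (0.19, adjusted p = 0.00719). Without Con replicate 1 it was 0.07, and with limma 0.06 on FPKM and 0.03 on TPM.

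The 4 globins together made 249.7 ± 12.7 CPM in Con and 276.6 ± 13.7 CPM in EX (SD, n = 3 each), a log2 difference of 0.15 (exact permutation test, two-sided p = 0.2). Summed in FPKM the difference was 0.08 (exact permutation test, two-sided p = 0.3), and in TPM 0.05. By library the sum was 239, 264 and 246 CPM in Con and 261, 287 and 282 CPM in EX, so Con replicate 2 lay above EX replicate 1. The proportions of the chains are given without a call, since 3 against 3 libraries allow no permutation p under 0.1. The ratio of alpha to beta mRNA in FPKM was 1.20 ± 0.092 in Con and 1.23 ± 0.061 in EX (SD, n = 3 each; exact permutation test, two-sided p = 0.7), a log2 difference of 0.04 that was -0.02 without Con replicate 2. Hba-a1 supplied 58.8% to 63.4% of alpha FPKM in Con and 60.9% to 62.1% in EX. Hbb-bs supplied 85.7% to 86.5% of beta FPKM in Con and 85.5% to 87.1% in EX. Across the 6 libraries, after subtraction of group means, log2 CPM of Hba-a2 and Hbb-bs gave a Pearson r of 0.73 and that of Hba-a1 and Hbb-bs one of -0.14, as a description of libraries that share depth and, within a pair, reads.

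Alas2 and Bpgm, which serve hemoglobin in red cells, both had all EX values above the Con values, and Bpgm passed the test. Alas2 was counted 44, 35 and 45 times in the Con and 52, 57 and 56 times in the EX libraries. At this depth the log2 fold change of 0.36 had an SE of 0.17, and it did not pass (edgeR unadjusted p = 0.0501, adjusted p = 0.163). Without Con replicate 2 it was 0.22 (adjusted p = 0.488). The lowest value was 0.19, from limma on log2(FPKM + 1). Set against the globins, Alas2 made 13.2, 8.44 and 11.5 CPM per 1000 CPM of globin mRNA in Con and 12.6 CPM in each EX library. The Con values lay on both sides of the EX values, with Con replicate 2 the furthest away.

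Bpgm was at 94.5, 94.7 and 97.0 CPM in Con and 109, 111 and 112 CPM in EX. The replicates of each group lay within a few CPM of each other and the groups were well apart. The log2 fold change was 0.22 (SE 0.042, 1.16-fold, edgeR adjusted p = 0.000419), and 18.4% of the genes tested changed by more. Bpgm was called in all 16 alternative analyses, at 0.13 (limma on TPM, adjusted p = 0.0476) to 0.23.

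Mb was the one member called lower by edgeR. It was at 2205, 2342 and 2328 CPM in Con and 2054, 2127 and 2058 CPM in EX, with all EX values under the lowest Con value. The log2 fold change was -0.14 (SE 0.033, 95% confidence interval -0.21 to -0.072, edgeR adjusted p = 0.00322), and it was called in all 16 alternative analyses, at -0.24 to -0.13. Set against the 4 globins in each library, Mb FPKM was 3.32 ± 0.074 times their sum in Con and 2.72 ± 0.098 times in EX (SD, n = 3 each). No EX ratio reached a Con ratio (two-sided exact permutation p = 0.1, which is the lowest that 3 against 3 allows). Cytoglobin (Cygb), a globin of fibroblast-like cells and the one other globin of 11 listed that passed the filter, fell too, from 21.3 ± 1.91 to 15.8 ± 0.118 CPM (SD, n = 3 each; log2 fold change -0.42, edgeR adjusted p = 0.000229). Ngb was under the filter, and the other 9 listed globins were not analysed here.

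Myoglobin is more abundant in oxidative than in glycolytic fibers, so genes of fiber type are given beside it. All 7 listed slow-fiber genes rose, with a median log2 fold change of 4.26, as in Myh7 (6.65), Tnni1 (4.84) and Tnnc1 (4.84). These 3 genes were nearly absent in Con, with 13, 14 and 19 counts of Myh7, 8, 6 and 4 of Tnni1 and 6, 9 and 8 of Tnnc1. In EX they had 1522 to 1737, 174 to 192 and 220 to 250 counts. Of 9 listed fast-fiber genes 5 rose and 2 fell. The pair that fell was Myh2, the myosin of fast oxidative fibers, which went from 754.9 ± 11.9 to 450.0 ± 8.69 CPM (log2 fold change -0.75), and Myh1 (-0.09, adjusted p = 0.0466). The slow-fiber genes summed to 99.3 to 104.2 CPM in Con and 349.2 to 375.3 CPM in EX, against at least 138549 CPM of the fast-fiber list in every library. In bulk muscle, fewer cells of a type and less RNA per cell cannot be told apart, and the part of fiber type in the lower Mb was not tested. The sources used here name no single muscle, so whether the same part was sampled in both groups is not known.

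Alas1, the first enzyme of heme synthesis outside red cells, rose. It was at 142, 144 and 139 CPM in Con and 160, 165 and 162 CPM in EX. The groups did not overlap, and the log2 fold change was 0.19 (SE 0.039, 1.14-fold, edgeR adjusted p = 0.000846). Only limma on TPM did not call it, at 0.10 (adjusted p = 0.0847). Fech, at the other end of the pathway, was at 154.8, 150.4 and 146.9 CPM in Con and 146.5, 143.5 and 147.8 CPM in EX. Its log2 fold change of -0.05 (95% confidence interval -0.13 to 0.036, edgeR adjusted p = 0.477) did not pass. With limma it was -0.10 on log2(FPKM + 0.1) (adjusted p = 0.110), and on TPM it was called lower (-0.14, adjusted p = 0.0443). The median over all genes tested was also under 0 in these limma fits, at -0.06 and -0.09.

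Of heme synthesis, 8 enzymes were listed and all were tested. Alas1 and Cpox rose and none of the 8 fell, so 25% were called in either direction, against 17.9% of all genes tested. The list's median log2 fold change was 0.08, against -0.00093 over all genes tested. Cpox, the mitochondrial coproporphyrinogen oxidase, was at 30.7, 35.1 and 33.5 CPM in Con and 42.3, 38.5 and 39.0 CPM in EX (log2 fold change 0.27, SE 0.061, edgeR adjusted p = 0.00213). It missed the threshold with limma on FPKM and TPM (adjusted p = 0.0750 and 0.109). Uros, which closes the ring, had a log2 fold change of 0.16 and did not pass (edgeR adjusted p = 0.140). Alad and Urod lay within 0.01 of 0. Ppox was at -0.08, with -0.005 without EX replicate 1, -0.03 without Con replicate 3, -0.14 without EX replicate 2 and -0.19 with limma on TPM, and was called in none of the 16 alternative analyses.

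Hmox1 did not pass the test. It was at 13.3, 10.7 and 12.9 CPM in Con and 13.8, 14.1 and 13.1 CPM in EX. Con replicate 2 was the lowest library, and the EX values overlapped the others. The log2 fold change was 0.15 (95% confidence interval -0.038 to 0.34, edgeR adjusted p = 0.280), and without Con replicate 2 it was 0.06 (adjusted p = 0.772). With limma it was 0.10 on FPKM and 0.06 on TPM. None of the 4 listed genes of heme breakdown passed. The closest was biliverdin reductase B (Blvrb), at 0.54 with an adjusted p of 0.0504, which passed in 4 of 16 alternative analyses and missed in the other 12. It passed without Con replicate 3 (0.74, adjusted p = 0.0127), and it was 0.36 without EX replicate 1 (adjusted p = 0.275) and had an adjusted p of 0.178 with DESeq2. Hmox1 is strongly expressed by macrophages that take up red cells, so macrophage genes are given beside it. Of 8 tested macrophage genes 7 rose (87.5%, against 9.11% of all genes tested that were higher in EX). The whole macrophage list of 10 genes summed to 47.2 to 50.4 CPM in Con and 84.8 to 92.1 CPM in EX, with C1qc (1.26), Ctss (1.20) and C1qb (1.03) the furthest apart on the log2 scale. The part of macrophages in the Hmox1 values was not tested.

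Of the carriers of heme and its precursors, 12 of 14 were tested and 1 passed. The heme exporter gene Flvcr1 fell from 79.5 ± 3.11 to 62.0 ± 3.76 CPM (SD, n = 3 each; log2 fold change -0.36, SE 0.050, edgeR adjusted p = 5.5e-06). Among 15 tested genes of iron handling 4 rose and 2 fell, which is 40% of the list, against 17.9% of all genes tested. The transferrin receptor gene Tfrc, which brings iron into cells, rose from 210.2 ± 15.2 to 271.1 ± 3.74 CPM (0.37, SE 0.043), and Slc11a2, Steap3 and Pcbp1, which move iron out of endosomes, reduce it and chaperone it, rose by 0.17, 0.17 and 0.15 on the log2 scale. Of 16 alternative analyses, Slc11a2 and Steap3 lost their calls in 8 each and Pcbp1 in 5. All 3 were lost with limma on FPKM and TPM, Slc11a2 and Steap3 also with DESeq2 (adjusted p = 0.0782 and 0.133), and Steap3 with scaling without the 20 most abundant genes (0.0684). They were also lost without single libraries, Slc11a2 without Con replicate 2 or 3 or EX replicate 2 or 3 (adjusted p = 0.0524 to 0.119), Steap3 without Con replicate 1 or 2 or EX replicate 3 (0.0842 to 0.193) and Pcbp1 without EX replicate 2 or 3 (0.0554 to 0.0753). The iron exporter gene Slc40a1 fell by 0.41 on the log2 scale and the ferroxidase gene Cp by 0.37. The ferritin genes Fth1 and Ftl1 did not pass, at -0.05 and 0.05.

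**Figure D3:**
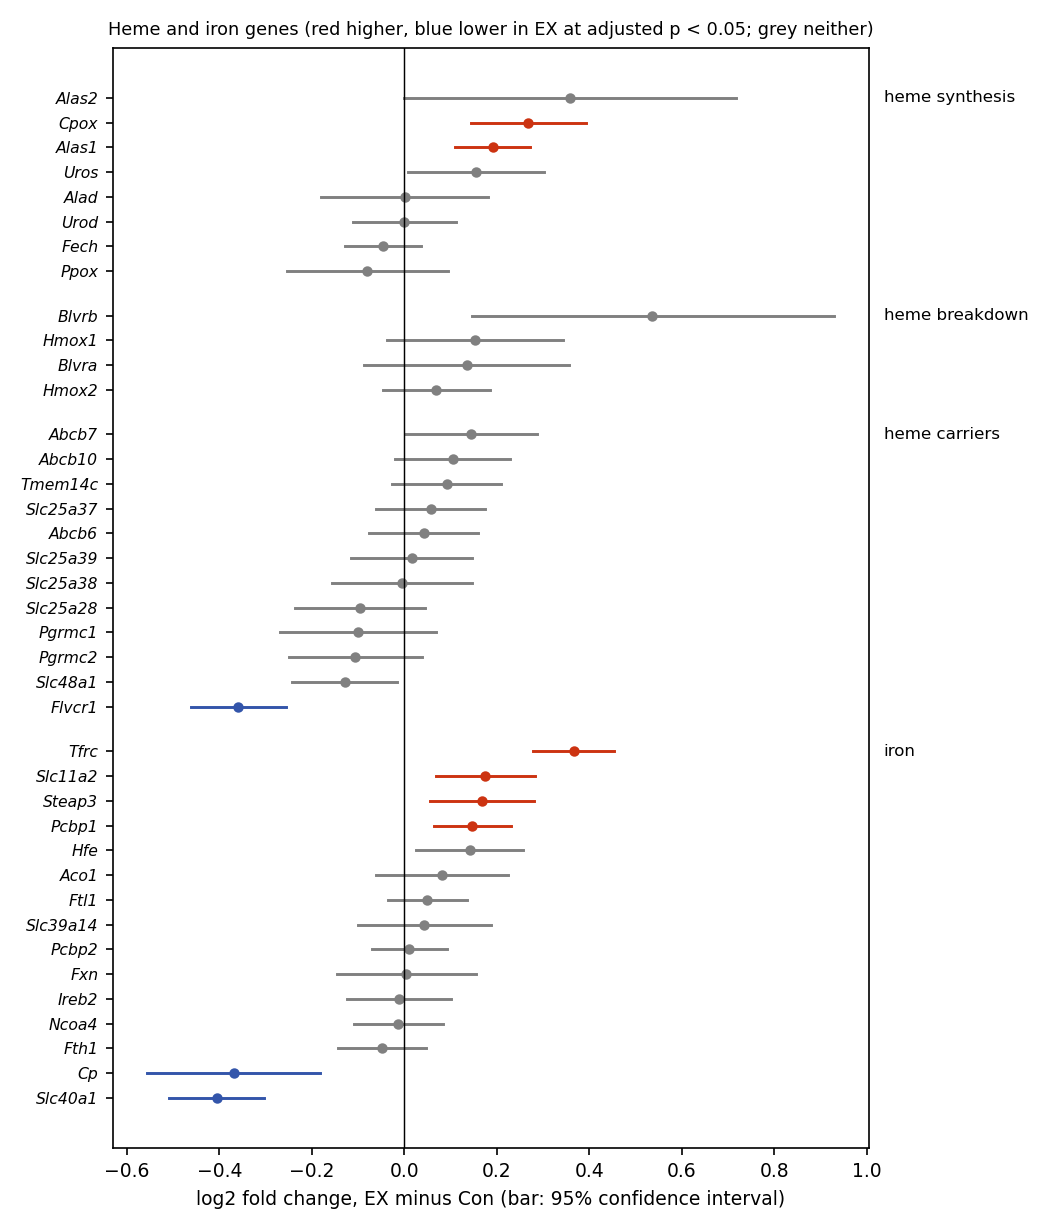
log2 fold change of EX minus Con for the tested genes of heme synthesis, heme breakdown, heme carriers and iron, with 95% confidence intervals as bars. Red and blue mark genes higher and lower in EX at an adjusted p under 0.05, and grey the others. Of the called genes, Tfrc (0.37) and Cpox (0.27) lie furthest to the right, with Blvrb (0.54) and Alas2 (0.36) among the grey genes there, and Flvcr1 (-0.36), Cp (-0.37) and Slc40a1 (-0.41) to the left.

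Since the animals were perfused, markers of blood cells are set beside the globins. Of 23 listed red-cell genes 16 were matched, and the other 7 were not analysed here. The defining markers lay at or near 0. Epb42 had 1 count in 1 library and none in the other 5, and Slc4a1 had 0 to 3 counts per library. In all, 7 of the 16 genes had at most 3 counts in every library, where a count of 0 allows up to 0.188 to 0.214 CPM. The 5 red-cell genes that passed the filter were Ank1, Sptb, Gypc, Tmcc2 and Tal1, of which Ank1 rose (0.27) and Sptb fell (-0.13), and muscle fibers express both of these. The call of Sptb was lost when Con replicate 2 or either of EX replicates 1 and 3 was left out (adjusted p = 0.0619 to 0.0818). The summed red-cell list, almost all of it these 5 genes, was 900.2 to 940.8 CPM in Con and 982.3 to 1016 CPM in EX.

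Platelet genes summed to 1.84 to 3.20 CPM in Con and 3.46 to 4.63 CPM in EX, of which Pf4, also made by some macrophages, was the one tested and rose (1.29, edgeR adjusted p = 0.000513). White blood cell genes summed to 3.01 to 4.06 CPM in Con and 2.54 to 4.34 CPM in EX, and 5 of the 11 had at most 3 counts in every library. S100a8 was the only one tested and did not pass, but at 1 or 2 counts per library it could hardly have done so. Endothelial cells have also been described to hold alpha globin. Of 10 listed endothelial genes 5 fell, among them Flt1 (-0.27) and Cdh5 (-0.26), Cldn5 rose (0.25), and the list summed to 909.3 to 921.4 CPM in Con and 795.0 to 814.4 CPM in EX. The call of Cldn5 was lost in 5 of 16 alternative analyses, namely DESeq2 (adjusted p = 0.0951), the 3 limma fits (0.0675 to 0.1003) and without Con replicate 2 (0.131). The part of blood, macrophages and vessels in the globin values was not tested beyond these sums.

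**Figure D4:**
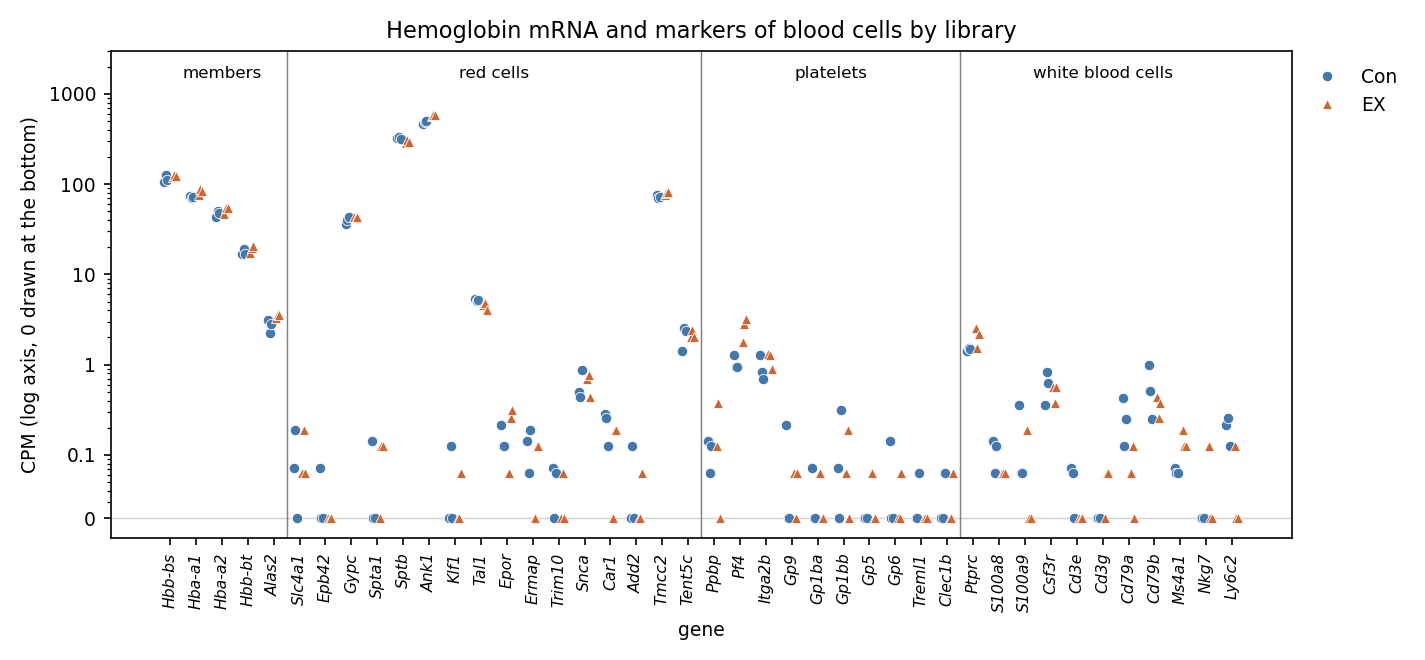
CPM of the 4 globins and Alas2 beside listed markers of red cells, platelets and white blood cells, on a log axis with 0 drawn at the bottom, with circles for Con and triangles for EX. The globins lie between 16.7 and 126 CPM, while Epb42, Klf1 and Slc4a1 stay under 0.2 CPM in every library.

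The libraries held 13845362 to 16240431 counts, and the labelled tissue was borne out by its markers: Myh4, Acta1 and Ckm were at 24614 CPM or more in every library. Of the 8 muscle genes listed, Acta1 (0.22) and Mylpf (0.30) rose and the other 6 did not pass.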

How the data were processed

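RNA of 3 Con and 3 EX samples of hind leg muscle was sequenced by the authors as paired-end 150-base reads on the DNBseq platform. The study's methods name HISAT and GRCm39, while the submitters' processing notes list cutadapt, featureCounts, MultiQC and GRCm38.p6, and the table gives no positions. The authors deposited estimated counts per gene, of which 4.18% to 4.44% were not whole, and FPKM and TPM values per length and depth. The 6 columns of group means were not used.

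Counts were rounded and tested with edgeR 4.0.16 (glmQLFit, glmQLFTest) in R 4.3.3 after TMM scaling, with Benjamini-Hochberg adjustment over the genes whose FPKM averaged 1 or more across libraries. Rarer genes come from an unfiltered fit. Sums and ratios were compared by exact permutation tests over libraries. Alternatives were DESeq2 1.42.0, limma 3.58.1 on log2(FPKM + 0.1), log2(FPKM + 1) and log2(TPM + 0.1), which understate the change of low genes, median ratio scaling, scaling without the 20 most abundant genes, other filters (none, 5 FPKM), a robust prior, a replicate block, and each library left out. The scripts were tested on simulated data. The members and the 16 other gene lists were chosen with earlier results of these data known. Named genes were the members, all listed heme synthesis enzymes, and from each other list up to 3 called genes with the largest change and no overlap. Some items of these lists are withheld for evaluations and are not reported here. Other names were chosen after their values were seen. Intervals of fold changes come from the fit and hold the spread between libraries, and limits for a count of 0 cover counting error only. The labels do not say that each library is a separate mouse, and p-values measure only the spread between these libraries.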

Additional observations from a re-analysis of the deposited data

How the results depend on the processing

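DESeq2 called 1228 genes (643 higher, 585 lower) against 1949 (991 higher, 958 lower) with edgeR. The split of higher and lower calls moved to 411 and 1037 with limma on log2(FPKM + 0.1), to 340 and 1684 on log2(TPM + 0.1) and to 772 and 1259 with scaling without the 20 most abundant genes. The median log2 fold change of all genes was then -0.06, -0.09 and -0.03. Leaving out 1 library gave 1344 (without EX replicate 3) to 1857 calls over all genes and 3 to 5 calls among the 10 members. The summed globin mRNA differed by 0.048 on the log2 scale when TPM were summed. Replicate numbers did not pair the samples (correlations of the deviations of same-numbered libraries -0.084, -0.052 and -0.073), and with a replicate block 1782 genes and 4 members were called. Urod changed sign with median ratio scaling (5.7e-05) and no filter (0.00027), and lay between -0.041 (without EX replicate 2) and 0.060 (without EX replicate 1) when 1 library was left out. Alad changed sign with limma on log2(FPKM + 0.1) (-0.033), log2(FPKM + 1) (-0.031) and log2(TPM + 0.1) (-0.067), with scaling without the 20 most abundant genes (-0.023) and at 5 FPKM (-0.013), and lay between -0.078 (without Con replicate 1) and 0.088 (without Con replicate 2) when 1 library was left out. Over 45 named genes, 656 of 716 alternative values kept direction and side of the threshold, 41 lost the call, 7 gained it and 12 changed sign, those of Urod and Alad. The causes were not tested. Alas2 had 35 to 57 counts per library, which limits its precision.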

Other observations

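Of 8 tested genes that sense oxygen, none rose and 2 fell, so 25% were called in either direction, against 17.9% of all genes tested. The genes that fell were Egln3 and Epas1. Egln3, a prolyl hydroxylase that marks hypoxia-inducible factors for breakdown, went from 15.2 ± 0.532 to 11.8 ± 0.500 CPM (SD, n = 3 each, log2 fold change -0.36, edgeR adjusted p = 0.00315). Epas1, the gene of HIF-2 alpha, was at -0.13 (edgeR adjusted p = 0.0141). The call of Epas1 was lost when Con replicate 2 or either of EX replicates 1 and 2 was left out (adjusted p = 0.0502 to 0.0734). None of 9 tested genes of the response to heme and oxidants passed, among them Nfe2l2, Bach1 and Nqo1. In edgeR, Gclc came closest, at -0.17 with an adjusted p of 0.0714. Of the genes that scavenge free hemoglobin and heme, haptoglobin (Hp) rose from 3.27 ± 0.360 to 5.31 ± 0.498 CPM (0.69, adjusted p = 0.00165), and Hpx and Lrp1 did not pass.

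Over the 6 libraries, after subtraction of group means, the log2 CPM of Pdia3 and P2rx5 followed that of Hbb-bs most closely (Pearson r of 0.9996 and 0.998), that of Ctnnbl1 followed Alas2 (0.9997), that of Zfand1 followed Mb (0.997) and that of Mpst followed Hmox1 (0.998). With so few libraries, 164 to 253 of 10882 other genes had an r above 0.9 with any given member, so these are descriptions only.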
